A study of Homo sapiens with 41 samples.

Results

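HDAC6 ChIP of MDA-MB231 cells treated with Nexturastat A was compared with HDAC6 ChIP of control cells. The comparison rests on 4 of the 41 samples of the series, chosen by their titles: 1 control and 1 inhibitor library made with a Cell Signaling Technology antibody (CST, replicate 1), and 1 control and 1 inhibitor library made with a Novus antibody (replicate 2). MDA-MB231 is an established human triple-negative breast cancer line. Nexturastat A, a hydroxamate inhibitor with selectivity for HDAC6, was used at 5 µM over 2 days of treatment. Libraries were made from 100000 cells each. The labels name no vehicle for the control cells and do not say whether replicates came from separate cultures. The deposited file of each sample is a list of peaks, that is, of intervals where reads were enriched over the local background, and read depth is unknown because the lists hold no counts. With 1 list per antibody and condition, differences within an antibody pair have no replicate check, and the confidence intervals of shares given here (95%, exact Clopper-Pearson) cover counting error only.

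HDAC6 is a zinc-dependent deacetylase that resides mainly in the cytoplasm, where it removes acetyl groups from alpha-tubulin, cortactin and HSP90. Its zinc finger binds ubiquitin, which ties it to the transport and autophagy of misfolded proteins. A hydroxamate chelates the zinc ion of the catalytic site, so it blocks the enzyme's activity without removing the protein. ChIP of HDAC6 reports DNA that is close to the protein, or to whatever else the antibody binds, and not its activity.

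At the starts of the marker genes, the control lists of other assays matched a mesenchymal-type, receptor-negative breast line only in part. VIM, CD44 and EGFR had an ATAC peak in 3 of 3 lists and an RNA polymerase II (PolII) peak in 2 of 2, and AXL had an ATAC peak in 2 of 3 and a PolII peak in 2. Of the epithelial markers KRT18 had both kinds in every list, KRT8 had an ATAC peak in 3 lists and no PolII peak, EPCAM had 2 and 1, and CDH1 0 and 1. ESR1 had neither in any list. ERBB2 also had both kinds of peak in all of these lists, and PGR had an ATAC peak in 1 list and a PolII peak in 1. Of the leukocyte markers PTPRC had no peak, whereas CD3E had an ATAC peak in 3 lists and CD14 in 1, both without a PolII peak. The peak names inside the inhibitor list of the Novus pair carry a prefix that other lists of the series use for control-hairpin cells. That library is therefore called the Novus library labelled Nexturastat A, and every direction drawn from it rests on the label.

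Far fewer HDAC6 peaks were listed after Nexturastat A with either antibody. On chromosomes 1 to 22 and X the CST control list held 28590 peaks and the CST inhibitor list 3256. The Novus control list held 63833 peaks and the Novus library labelled Nexturastat A 235. The covered length was 19.1 Mb and 1.79 Mb in the CST pair, and 33.7 Mb and 0.132 Mb in the Novus pair. Both inhibitor lists were below both control lists. The mean of log2 peak number was 15.38 ± 0.82 (SD, n = 2) in control and 9.77 ± 2.68 (SD, n = 2) with inhibitor, a difference of -5.61. The two-sided exact permutation p was 0.333, which is also the smallest value possible with 2 lists in each group. The 2 lists of a group come from different antibodies, so the SD holds the antibody difference and is not a replicate spread. That test ignores the antibody pairs, and with the pair as a block (sign flips) the exact p was 0.5, also the smallest possible. The 2 pairs were not built alike: the CST lists hold every number of their peak numbering and only peaks with a −log10 q above 1, whereas the Novus lists hold 23.2% (control) and 0.103% (inhibitor) of a numbering that runs to 275353 and 227815. In the Novus lists −log10 q was 0 for 51.4% of control and 91.1% of inhibitor peaks, and the gaps in the numbering mean that peaks were removed after calling, by a step not given in the sources used here. The 2 numberings end far closer together than the lists' lengths of 63833 and 235. How much of that difference, and of every loss counted in the Novus pair, comes from the removal was not tested.

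The strongest peak of both Novus lists lay at a gene start, and 8 promoters with a peak in both Novus lists are shown as examples. They do not all rank high in both lists, as their values below give. For each gene the 250 bases before the RefSeq start (GRCh38.p14) are printed in the direction of transcription. Capitals mark the pentamer CCAAT on either strand (ATTGG when it lies on the other strand), the CCAAT box that the trimeric factor NF-Y is known to bind. The first 4 genes have an HDAC6 peak in all 4 lists: SP2, a zinc finger factor of the Sp family, RAB5B, a GTPase of early endosomes, KHSRP, a KH-domain RNA-binding protein, and DNM2, the membrane-cutting GTPase dynamin 2. The next 4 have a peak in both Novus lists and in the CST control list: TOM1L2, an adaptor of endosomal sorting, RFX1, a winged-helix transcription factor, CIC, the repressor capicua, and OSBP, an oxysterol-binding protein. Some of these peaks were weak calls. In the Novus library labelled Nexturastat A −log10 q was 0.270 at KHSRP, 0.657 at OSBP and 0.792 at DNM2. It was 1.95 at RAB5B, 2.47 at CIC, 2.48 at TOM1L2, 3.51 at RFX1 and 8.90 at SP2.
SP2: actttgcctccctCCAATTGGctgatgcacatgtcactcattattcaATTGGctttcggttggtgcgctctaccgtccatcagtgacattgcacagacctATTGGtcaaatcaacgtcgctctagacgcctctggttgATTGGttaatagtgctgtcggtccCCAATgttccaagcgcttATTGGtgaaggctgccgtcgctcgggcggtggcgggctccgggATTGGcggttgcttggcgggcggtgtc
RAB5B: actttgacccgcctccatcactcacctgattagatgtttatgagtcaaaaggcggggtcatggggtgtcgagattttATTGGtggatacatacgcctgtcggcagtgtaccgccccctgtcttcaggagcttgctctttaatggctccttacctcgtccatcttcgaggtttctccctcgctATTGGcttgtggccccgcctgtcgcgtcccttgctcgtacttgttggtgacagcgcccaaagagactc
KHSRP: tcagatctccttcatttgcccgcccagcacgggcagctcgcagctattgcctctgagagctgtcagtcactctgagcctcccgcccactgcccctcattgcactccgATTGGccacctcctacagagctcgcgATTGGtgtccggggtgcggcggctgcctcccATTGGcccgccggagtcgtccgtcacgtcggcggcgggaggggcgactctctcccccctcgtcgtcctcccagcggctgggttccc
DNM2: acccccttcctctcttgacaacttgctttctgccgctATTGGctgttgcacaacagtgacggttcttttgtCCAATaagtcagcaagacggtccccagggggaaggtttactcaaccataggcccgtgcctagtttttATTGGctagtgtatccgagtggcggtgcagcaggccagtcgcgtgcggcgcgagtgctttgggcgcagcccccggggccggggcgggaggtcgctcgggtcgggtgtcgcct
TOM1L2: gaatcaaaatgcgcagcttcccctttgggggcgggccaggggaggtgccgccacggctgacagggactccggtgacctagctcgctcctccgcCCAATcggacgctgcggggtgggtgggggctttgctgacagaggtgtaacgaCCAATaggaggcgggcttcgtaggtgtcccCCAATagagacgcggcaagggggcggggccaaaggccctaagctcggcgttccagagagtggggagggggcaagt
RFX1: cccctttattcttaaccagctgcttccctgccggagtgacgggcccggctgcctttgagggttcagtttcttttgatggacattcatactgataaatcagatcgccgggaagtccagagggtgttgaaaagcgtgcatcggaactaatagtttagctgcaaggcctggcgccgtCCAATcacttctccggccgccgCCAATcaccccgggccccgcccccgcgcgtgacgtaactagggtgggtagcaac
CIC: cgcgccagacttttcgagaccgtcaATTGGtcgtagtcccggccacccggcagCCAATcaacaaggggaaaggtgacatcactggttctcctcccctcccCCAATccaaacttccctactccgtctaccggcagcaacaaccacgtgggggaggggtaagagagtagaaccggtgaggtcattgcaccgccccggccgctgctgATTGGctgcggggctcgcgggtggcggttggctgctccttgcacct
OSBP: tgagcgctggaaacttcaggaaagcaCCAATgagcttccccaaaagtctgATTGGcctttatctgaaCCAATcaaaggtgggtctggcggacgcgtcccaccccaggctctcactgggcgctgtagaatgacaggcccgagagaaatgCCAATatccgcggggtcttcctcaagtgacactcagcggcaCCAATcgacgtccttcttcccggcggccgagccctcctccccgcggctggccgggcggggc

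These stretches are chr17:47895986-47896235 (+ strand) for SP2, chr12:55973699-55973948 (+) for RAB5B, chr19:6424812-6425061 (−) for KHSRP, chr19:10717829-10718078 (+) for DNM2, chr17:17972401-17972650 (−) for TOM1L2, chr19:14006321-14006570 (−) for RFX1, chr19:42268280-42268529 (+) for CIC and chr11:59615775-59616024 (−) for OSBP. SP2 holds 8 matches, OSBP 5, CIC 4, KHSRP, DNM2 and TOM1L2 3 each, and RAB5B and RFX1 2 each. SP1 and DRC3, which were kept too and are not shown, hold 3 each. Counted back from the start, the nearest match lies at -27 in SP2, at -46 to -86 in the other 6 genes and at -112 in DNM2. For contrast, ZNF687 and SPATC1L also have a peak in all 4 lists and hold no match. Their peaks in the Novus library labelled Nexturastat A had a −log10 q of 0 and 0.00478. The SPATC1L stretch (chr21:46184460-46184709, −) is a tandem repeat with a period of 53 bases, in which 196 of 197 bases equal the base 1 period later, and reads of such a repeat may be placed at several copies. The ZNF687 stretch is chr1:151281272-151281521 (+).
SPATC1L: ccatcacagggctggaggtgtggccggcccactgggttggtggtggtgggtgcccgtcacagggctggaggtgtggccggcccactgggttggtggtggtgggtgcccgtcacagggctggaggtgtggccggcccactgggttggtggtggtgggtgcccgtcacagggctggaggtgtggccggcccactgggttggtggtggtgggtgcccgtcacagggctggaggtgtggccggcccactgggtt
ZNF687: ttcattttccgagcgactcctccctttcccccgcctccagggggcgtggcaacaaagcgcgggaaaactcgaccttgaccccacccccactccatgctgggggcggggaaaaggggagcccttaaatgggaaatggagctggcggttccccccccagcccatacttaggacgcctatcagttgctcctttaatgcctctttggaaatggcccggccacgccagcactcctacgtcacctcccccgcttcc

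SP2 had the strongest peak of both Novus lists. Its peak in the Novus control list (chr17:47895474-47897284) had a fold of 15.4 over background and a −log10 q of 62.9, and in the Novus library labelled Nexturastat A (chr17:47895201-47897021) a fold of 5.80 and a −log10 q of 8.90. Folds and q-values are the authors' values for a peak against the background of its own library. The same gene start ranked low in the CST control list, where its fold of 2.77 lay at the 14.7th percentile of that list, and it lay at the 80.2th percentile of the CST inhibitor list with a fold of 4.70. The percentile is the share of a list's peaks with a fold no higher, and percentiles of lists that differ in length show no change between them. SP2 thus stood at the top with 1 antibody and low in the list with the other, in control cells.

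DNM2 was second in the Novus control list with a fold of 7.03, and lay at the 82.1th percentile of the Novus inhibitor list with a fold of 2.55. In the CST pair its folds were 2.98 in control and 3.30 with inhibitor. EVI5L, which encodes a protein of the Rab GTPase-activating family, came next in the Novus control list with a fold of 7.01 and had a fold of 2.84 with inhibitor. OSBP had 6.79 and 3.04, CIC 6.22 and 3.70, and RFX1 5.39 and 3.91 as Novus folds in control and inhibitor. The peaks of DNM2, OSBP and RFX1 spanned the gene start in both Novus lists, and that of CIC did so in control, while its inhibitor peak (chr19:42268548-42269479) began just downstream of the start.

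RAB5B lay lower in the Novus control list, at the 93.3th percentile with a fold of 2.70, and was second of 235 in the inhibitor list with a fold of 3.99. The gene CDK2, for the S-phase cyclin-dependent kinase, is counted as kept through these same Novus peaks, but only because its direction was not in the table used and both gene ends were taken; the peaks lie at the end that faces RAB5B. KHSRP had Novus folds of 3.36 in control and 3.23 with inhibitor, from peaks shared with its neighbour SLC25A41, whose start was also chosen by rule. ZNF687 was at the 99.9th percentile of the Novus control list and at the 0.851th of the inhibitor list. Of the 7 genes marked in all 4 lists, SPATC1L was the only one above the 90th percentile in both CST lists, with folds of 5.72 (98.95th percentile) and 8.98 (96.4th percentile).

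**Figure D1:**
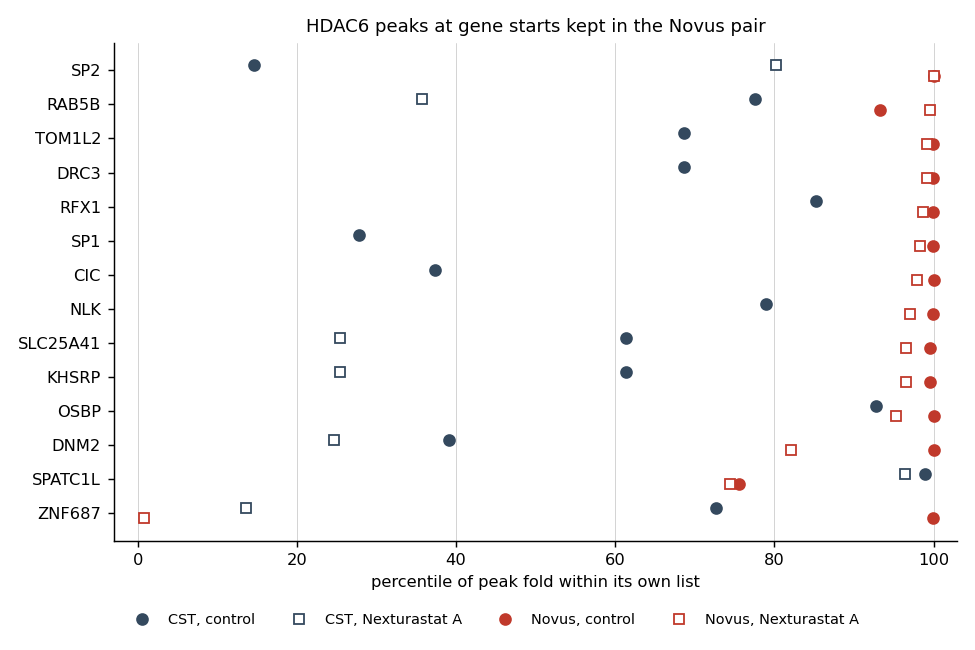
Percentile of the HDAC6 peak at each named gene start within its own list (x axis, 0 to 100) for genes kept in the Novus pair. Filled circles are control lists and open squares inhibitor lists, in dark blue for CST and red for Novus, and a missing symbol means no peak. SP2 sits at 100 in both Novus lists and at 14.7 in the CST control list, and 7 of the 14 genes have no peak in the CST inhibitor list.

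Gene starts were read as kept (peak in both lists of a pair), lost (control only) or gained (inhibitor only), with a peak within 1 kb of the start of 19970 protein-coding genes. In the CST control list 10557 gene starts were marked, 52.9% of all genes, and in the Novus control list 4414, 22.1% of all genes. With the inhibitor 92.6% of the CST-marked starts (9772) were lost and 785 were kept. Of the Novus-marked starts 99.4% (4388) were lost and 26 were kept. These calls use no floor on q. At a −log10 q of at least 1, 202 starts had a Novus control peak and 9 a Novus inhibitor peak. Gains were rare, with 43 of 9413 unmarked starts in the CST pair (0.457%) and 9 of 15556 in the Novus pair (0.0579%). A total of 2756 starts were marked by both antibodies in control and lost with both, and 7 were marked in all 4 lists.

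The Novus antibody marked kept and lost CST promoters at shares whose intervals overlap. The Novus control list had a peak at 241 of 785 kept CST starts (30.7%, interval 27.5% to 34.1%) and at 2773 of 9772 lost ones (28.4%, 27.5% to 29.3%). At starts without a CST peak the share was 14.9%. In the other direction, 24 of the 26 kept Novus starts (92.3%, 74.9% to 99.1%) and 68.1% of lost Novus starts (66.7% to 69.5%) had a CST control peak. The 2 Novus groups also differed in strength, since kept promoter peaks had a median at the 99.9th percentile of the control list and lost ones at the 22.2th.

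The promoters kept with Novus were also present in 1 of the 2 HDAC6 knockdown libraries. Both knockdown (shHDAC6) libraries used the Novus antibody, as did the 2 HDAC6 CUT&Tag libraries of control cells. Knockdown list 2, of 12152 peaks, had a peak at 23 of the 26 kept starts (88.5%, interval 69.8% to 97.6%), at 2.69% of the lost ones and at 1.72% of all genes. Knockdown list 1, of 16441 peaks, had a peak at 0 of the 26 (interval 0% to 13.2%) and at 2.54% of all genes. SP2, RAB5B, KHSRP, DNM2, TOM1L2, RFX1, SP1, CIC, NLK and OSBP were all marked in exactly 1 knockdown list. Among lost Novus starts above the 99th percentile of the control list, knockdown list 2 marked 19 of 98 (19.4%). The 2 knockdown lists thus disagreed on these promoters, and neither HDAC6 depletion in them nor the cause of the difference was tested.

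CCAAT matches were more frequent in the kept Novus promoters than in the other sets. Sequence was at hand for 15811 of the 19970 genes, and the 250 bases before the start were searched on both strands. A CCAAT match was present in 17 of the 23 kept Novus promoters with sequence (73.9%, interval 51.6% to 89.8%), in 31.4% of 3493 lost Novus promoters and in 34.4% of all 15811. Among lost Novus promoters above the 99th percentile it was present in 34 of 79 (43.0%, 31.9% to 54.7%), an interval that overlaps that of the kept promoters. At least 2 matches were present in 60.9% of the kept, 24.1% of the strong lost and 11.5% of all promoters. TOM1L2 with DRC3, MYL11 with TBC1D10B, and ANKHD1 with its readthrough gene share a peak, so the 23 are not independent. The sets also differed in base composition. The median share of G and C was 58.4% in kept, 69.6% in lost, 68.0% in strong lost and 62.4% in all promoters. Promoters unmarked in all 4 lists had 54.4%, and 34.3% of them held a CCAAT match. The part of composition in the CCAAT shares was not tested. The GC box (GGGCGG) was present in 87.0% of kept, 74.0% of lost and 69.6% of strong lost Novus promoters. The motifs were chosen with earlier results known, no test was run, and a match is only a run of letters in this window.

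CCAAT shares lay close together in the CST pair. The box was present in 33.9% of 664 kept, 35.5% of 7997 lost and 34.3% of 6062 promoters unmarked in all 4 lists. The GC box (GGGCGG, the letters that Sp factors bind) was present in 75.5% of kept, 71.3% of lost, 56.0% of all and 32.1% of unmarked promoters. The ETS core (CCGGAAG) was present in 11.1% of kept (8.85% to 13.8%) and 16.9% of lost (16.1% to 17.7%) CST promoters, beside 11.8% of all promoters. Above the 90th percentile it was present in 13.0% of kept (8.56% to 18.5%) and 20.9% of lost (18.3% to 23.7%) CST promoters. These 2 intervals overlap. Shares for TATAAA were 4.97% of kept, 4.63% of lost and 15.9% of unmarked promoters. The median share of G and C was 66.8% in kept, 66.0% in lost, 62.4% in all and 54.4% in unmarked promoters. Its part in the GC box and TATAAA shares was not tested. The other motifs searched were the E-box CACGTG, the cyclic AMP element TGACGTCA, the AP-1 site TGANTCA, the YY1 core AAGATGGC and the paired heat shock half-sites GAANNTTC, each in under 10% of kept and of lost CST promoters. FAM135A and USP8, a deubiquitinase of endosomes, are among the lost CST promoters of highest percentile and are shown with GC boxes in capitals (3 and 4 matches), at chr6:70413258-70413507 (+) and chr15:50424155-50424404 (+). They hold the most GC boxes among the promoters of this set with sequence: ZNF286A holds 1, and LCA5L and NGLY1 hold 0.
FAM135A: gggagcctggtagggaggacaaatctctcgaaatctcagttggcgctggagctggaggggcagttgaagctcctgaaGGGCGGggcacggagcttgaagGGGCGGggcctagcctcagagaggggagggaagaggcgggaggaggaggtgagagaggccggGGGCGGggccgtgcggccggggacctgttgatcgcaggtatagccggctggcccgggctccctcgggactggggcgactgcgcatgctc
USP8: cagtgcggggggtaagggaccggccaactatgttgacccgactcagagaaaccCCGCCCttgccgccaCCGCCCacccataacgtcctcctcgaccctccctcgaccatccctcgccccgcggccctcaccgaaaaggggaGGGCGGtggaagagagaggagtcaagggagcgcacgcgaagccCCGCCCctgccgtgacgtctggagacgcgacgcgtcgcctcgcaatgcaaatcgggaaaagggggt

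In the CST pair the share of control peaks found again rose with peak strength. Of 28590 control peaks 2062 (7.21%, interval 6.92% to 7.52%) overlapped an inhibitor peak, and 2111 of 3256 inhibitor peaks (64.8%) overlapped a control peak. All of the 50 strongest control peaks were found again, as were 98 of the 100 strongest and 65.1% of the 1000 strongest. The share fell to 2.42% in the lower 50 percentiles. With Novus, 38 of 63833 control peaks (0.0595%) and 38 of 235 inhibitor peaks (16.2%) overlapped. Of the 10 strongest Novus control peaks 7 were found again, of the 50 strongest 12, and of the 235 strongest 15.

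The strongest regions of the 2 antibodies were of different kinds. None of the 100 strongest CST control peaks lay within 1 kb of a gene start, and 74 lay over 100 kb from every protein-coding start. Of the 10 strongest Novus control peaks 9 lay at a gene start. Among the 100 strongest Novus control peaks 35 did, and 24 lay over 100 kb from every start. The strongest CST peak was chr3:93470282-93470884, 503 kb from the start of PROS1, with a fold of 70.2 in control and 69.5 with inhibitor. The second, chr17:22521275-22521593, had folds of 40.3 and 41.6, and chr13:109424052-109424404 had 32.7 and 36.4. Folds at these 3 regions were thus of like size in both lists. Regions near chromosome ends had lower folds in the inhibitor list: chr12:133264894-133265344 had 32.8 and 18.3, chr5:10006-11811 had 28.9 and 16.7, and chr10:9987-10459 had 22.5 and 9.66. Some other far regions had higher folds in the inhibitor list. The region chr4:50676064-50677358 had 17.7 in control and 29.2 with inhibitor, and chr11:51143273-51143662 (position in the inhibitor list) had 13.5 and 25.4. Chromosome ends and the flanks of centromeres are rich in repeats, where read placement is uncertain, and the part of this in the result was not tested.

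Among strong CST peaks, gene-distant ones were found again more often than promoter peaks. In the 90 to 99 percentile band of the control list 16.7% of promoter peaks (187 of 1117, interval 14.6% to 19.1%), 26.5% of peaks 1 to 100 kb from a start (184 of 694) and 45.3% of peaks over 100 kb away (345 of 762, 41.7% to 48.9%) overlapped an inhibitor peak. Far peaks lie higher within this band, so narrower bands were also read. Between the 90th and 92nd percentile the shares were 14.4% of promoter and 13.6% of far peaks, between the 92nd and 94th 12.2% (8.73% to 16.5%) and 27.4% (19.5% to 36.4%), between the 94th and 96th 19.7% (15.4% to 24.7%) and 31.1% (23.1% to 40.2%), and between the 96th and 98th 19.7% (14.3% to 26.0%) and 51.6% (44.8% to 58.4%). Within like folds the far share was thus the higher one in each of the bands above the 92nd percentile given here, with intervals that overlap between the 94th and 96th, and not in the lowest band. From the lowest of these narrow bands to the highest, peaks 1 to 100 kb from a start stood at 11.7%, 13.0%, 19.2% and 43.8%. Below the 96th percentile their intervals overlapped those of promoter peaks. In the top 1% the shares were 7 of 8, 52 of 56 and 210 of 222. Between the 50th and 90th percentile they were 7.91%, 4.55% and 7.02%, so promoter and far peaks did not stand apart there. Kept promoter peaks were wider than lost ones in the control list (medians of 1179 and 781 bp), and a wider peak meets another more easily. With Novus the order was the other way round: in the top 1% of the control list 15 of 107 promoter peaks (14.0%, 8.06% to 22.1%) and 0 of 240 far peaks (0% to 1.53%) were found again.

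**Figure D2:**
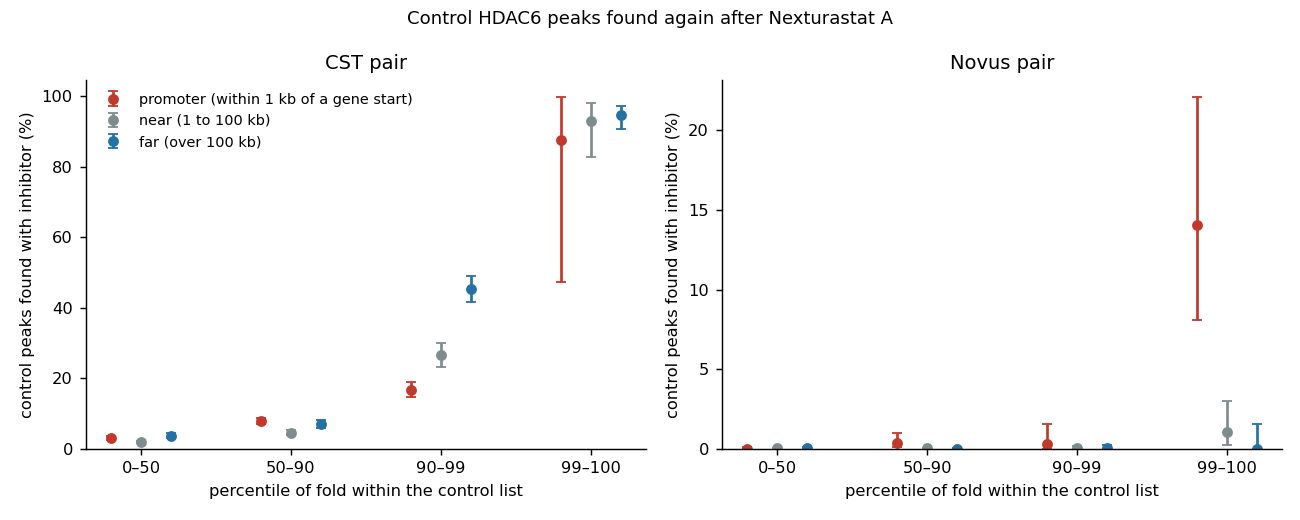
Share of control peaks that overlap an inhibitor peak (y axis, percent), by percentile band of fold in the control list (x axis), for the CST (left) and Novus (right) pair. Points are shares and bars exact 95% intervals, coloured by distance to the nearest gene start, and the y axes differ in scale. Far CST peaks of the 90 to 99 band stand at 45.3% and promoter peaks at 16.7%, while in the Novus top 1% promoter peaks stand at 14.0% and far peaks at 0%.

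The number of CST peaks left at a given significance also differed between classes. At a −log10 q of at least 2 the control list held 3605 promoter peaks and the inhibitor list 125 (3.47% of control), whereas far peaks numbered 1530 and 881 (57.6%). At a floor of 3 promoter peaks numbered 661 and 46 (6.96%) and far peaks 772 and 689 (89.2%). At a floor of 5 the totals were nearly equal, 654 and 633, of which 458 and 475 were far, while promoter peaks numbered 39 and 19. Near peaks, 1 to 100 kb from a start, numbered 2439 and 428 (17.5%) at a floor of 2 and 560 and 252 (45.0%) at a floor of 3. Over the whole lists near peaks gave the largest drop in number, from 13357 to 1094 (8.19% of control). Promoter peaks went from 9666 to 750 (7.76%, the lowest share left) and far peaks from 5567 to 1412 (25.4%). Promoter peaks thus had the lowest share left at floors of 2 and 3, and the CST lists differed little in total length from a floor of 5 on. At floors of 7 and 10 the inhibitor list was the longer one, with 423 control and 458 inhibitor peaks and with 287 and 302. A q-value depends on sequencing depth, which is unknown, and its part in these counts was not tested. For Novus a floor of 1 left 317 control and 8 inhibitor peaks, of which 178 and 7 were at promoters.

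**Figure D3:**
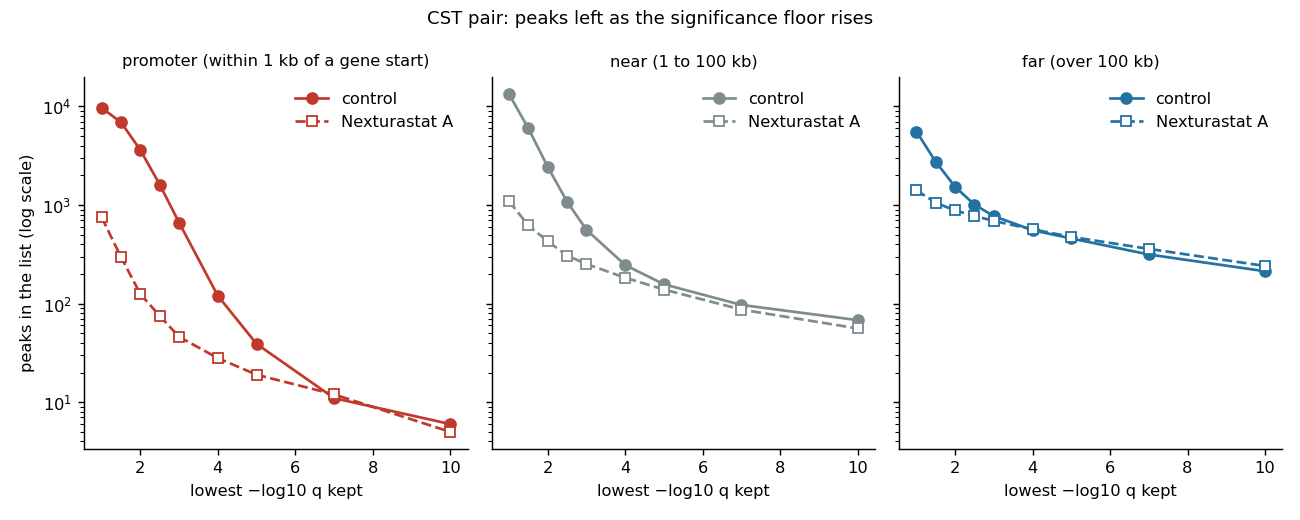
Number of peaks in the CST control (filled circles, solid line) and inhibitor list (open squares, dashed line) with at least the −log10 q on the x axis, on a log scale, for promoter, near and far peaks. Promoter peaks differ most at a floor of 2 (3605 and 125), while far peaks lie close together from a floor of 3 on (772 and 689).

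With lists cut to equal length the CST lists still differed in kind. The 3256 strongest control peaks held 1322 promoter peaks and 1064 far peaks, and the 3256 inhibitor peaks held 750 and 1412. At equal length 250 gene starts were kept, 1277 lost and 578 gained, beside 43 gained for the whole lists. Most starts marked in the inhibitor list thus had a control peak, and many of those control peaks were not among the 3256 strongest.

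Among the CST promoters lost from the highest percentiles were OTUD6B, a deubiquitinase, LCA5L with its neighbour SH3BGR, ZNF286A, FAM135A, USP8, and NGLY1, the cytosolic peptide N-glycanase, with its neighbour OXSM. Their control folds ran from 4.88 to 5.01, apart from 6.42 at an uncharacterised locus near the end of chromosome 3 (LOC124905351), and no inhibitor peak lay within 1 kb. Except for that locus, each had an ATAC peak in 3 of 3 and a PolII peak in 2 of 2 lists both in control and with inhibitor. The starts of OTUD6B, SH3BGR and OXSM had themselves been chosen by their control ATAC and PolII peaks. The gene HDAC6 itself had no peak at its start in any of the 4 lists, although both HDAC6 CUT&Tag lists, 3 of 3 control ATAC lists and 2 of 2 control PolII lists had one there.

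Kept CST promoters of the highest rank were mostly copies of gene families. USP17L11, USP17L15, USP17L18 and USP17L22, members of a tandem array of deubiquitinase genes on chromosome 4, had control folds of 5.09 to 7.09 and inhibitor folds of 5.49 to 6.03. TAF11L5, TAF11L7 and TAF11L10, members of a cluster on chromosome 5, had 4.61 to 5.92 and 5.49 to 6.46. In all, 15 of 25 USP17L and 7 of 13 TAF11L genes were kept, beside 785 of 19970 genes. Of other families of near-identical copies 5 of 21 FAM90A, 3 of 12 GAGE and 0 of 14 CT47 genes were kept, and all 5 families were chosen after their values were seen. Such copies share sequence, so peaks there are uncertain. SPATC1L, LOC107986800 and CCDC200 completed the list, and CCDC200 also had a Novus control peak with a fold of 3.10. These are not typical of the 785: 43 of them (beside 171 of the 9772 lost) had neither an ATAC nor a PolII peak in any control list.

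Gained CST promoters were few and of middling rank in the inhibitor list. ZNF84, a zinc finger gene, was highest at the 65.4th percentile with a fold of 3.89. KIR2DL3, a natural killer cell receptor, had 3.80, SLC6A14, an amino acid transporter, 3.76, CALN1 3.61, FCMR 3.58, SPRY3 and TMLHE 3.57 at a shared peak, and THSD7B 3.56. CT47B1 and FAM90A23 belong to families of near-identical copies. KIR2DL3, CALN1, FCMR and THSD7B had no ATAC and no PolII peak in any control or inhibitor list, whereas ZNF84 had one in all. The gained Novus starts were led by CCDC174, DCTN4, a dynactin subunit, HNRNPC, PAIP2B and ATP5MF, with folds of 2.52 to 2.87, and each of these 5 had a CST control peak.

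Loss of the CST peak was not accompanied by loss of open chromatin or PolII at the same starts. The 9772 lost starts had an ATAC peak in 88.1%, 88.3% and 88.7% in the control lists and in 88.3%, 88.1% and 86.6% in the inhibitor lists. The difference in means was -0.65 percentage points (exact permutation test over lists, two-sided p = 0.5, smallest possible 0.1). PolII peaks were present at 86.9% and 96.8% in control and at 87.5% and 96.6% with inhibitor (difference 0.235 points, exact permutation p = 1, smallest possible 0.333). Of 8427 lost starts with PolII in both control lists, 8312 (98.6%) had it in both inhibitor lists and 0 had it in neither. Of 7855 with ATAC in all 3 control lists, 95.0% had it in all 3 inhibitor lists and 6 had it in none. A list records presence only, so a change in height would not be seen here. Of the 9772 lost starts 7997 came from the promoter table. The others rest on a rule that read control ATAC and PolII peaks. Control shares at those others are therefore partly set by the choice of start. Shares at table starts alone were not computed.

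Pan-acetyl peaks marked a larger share of lost starts with inhibitor than in control, as they did of kept and unmarked starts. Lost starts have no inhibitor CST peak by definition, so the 2 changes cannot be set against each other there. At lost starts pan-acetyl peaks were present at 10.5% and 26.7% in the 2 control lists and at 88.3% and 58.4% in the 2 inhibitor lists. The means were 18.6% and 73.4% (exact permutation p = 0.333, the smallest possible). At the 785 kept starts the means were 21.4% and 76.8%, and at starts without a CST peak in either list 5.20% and 21.1%. Kept and lost starts thus had like shares, and the pan-acetyl lists themselves differed in length, 1418 and 41411 peaks in control and 28473 and 61186 with inhibitor.

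HDAC6 CUT&Tag, in which a tethered transposase cuts DNA near the bound Novus antibody, marked 70.2% and 81.5% of the kept and 61.9% and 76.5% of the lost CST starts, beside 8.86% and 14.8% of starts without a CST peak. Of 1145 inhibitor-only CST peaks 80 (6.99%) lay at gene starts and 597 (52.1%) over 100 kb away. The CUT&Tag lists covered 3.49% and 5.94% of these peaks, beside 27.8% and 33.5% of all kept and 26.3% and 33.7% of all lost peaks. Among far peaks alone the shares were 2.35% and 4.52% of inhibitor-only, 4.40% and 6.66% of kept and 6.06% and 9.91% of lost peaks. Of the 286 control peaks in the top 1%, ATAC list 1 covered 73.4% in control and 72.0% with inhibitor. ATAC lists 2 and 3 covered 3.15% and 2.45% in control and 3.15% each with inhibitor, and CUT&Tag covered 3.85% in each list. The cover of the strongest CST peaks by ATAC thus followed the replicate number and not the treatment. The 20 kept Novus promoter peaks were all covered in every control ATAC and PolII list, and 18 and 19 of them in the CUT&Tag lists.

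**Figure D4:**
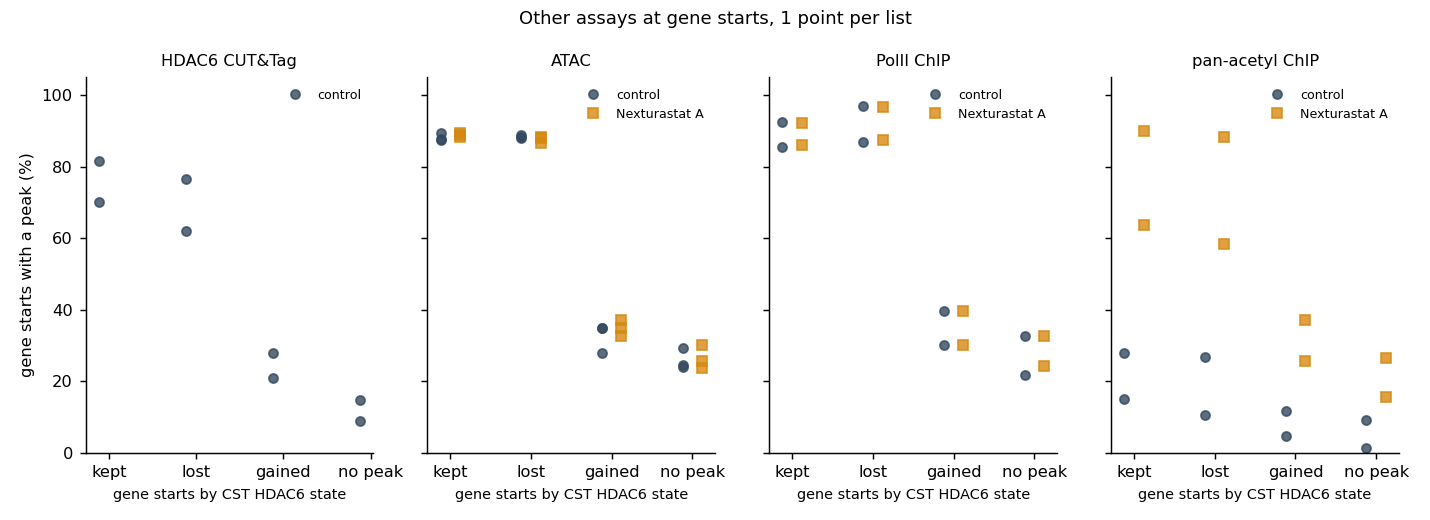
Share of gene starts with a peak in each list of 4 assays (y axis, percent), for starts grouped by their CST HDAC6 state (x axis). Each point is 1 list, circles for control and squares for Nexturastat A. ATAC and PolII shares at lost starts overlap between control and inhibitor, while pan-acetyl shares at lost starts are 10.5% and 26.7% in control and 88.3% and 58.4% with inhibitor.

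Of 35 genes for HDAC6 substrates and partners, 31 (88.6%) were marked in the CST control list, beside 52.9% of all genes. Other lists of widely expressed genes had like shares, with 100% for CTCF and cohesin, 95.8% for chaperones, 85.7% for oxidative phosphorylation and 85.2% for cell cycle genes. Of the 31, 28 were lost and 3 kept (90.3% lost, beside 92.6% of all marked genes). The kept ones were GSK3B, a kinase, PLAA, a ubiquitin-binding partner of VCP, and UBB, a ubiquitin gene. TPPP, a tubulin polymerisation protein, was the lost member of highest percentile (98.1th), followed by RIGI, HSP90AA1 and DYNC1I2. In the Novus control list 10 of the 35 were marked (28.6%, beside 22.1% of all genes) and all 10 lost, with G3BP1, a stress granule protein, at the 99.9th percentile and TUBA1B, an alpha-tubulin, at the 87.3th.

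All 26 marked genes of tubulin and microtubule transport were lost in the CST pair, among them KIF2A and KIF3A (kinesins) and DYNLL1 (dynein light chain). All 23 marked cell cycle genes were lost too, with BUB1 and MCM6 highest, and all 8 marked zinc-dependent deacetylases, HDAC2 (92.1th percentile), HDAC8 and HDAC3 among them. Of 67 marked cytosolic ribosomal protein genes 65 were lost (97.0%), and of 267 marked ZNF genes 257 (96.3%). With 92.6% lost in all, these shares are near the background. In the mesenchymal and basal breast list 12 of 15 marked genes were lost (80.0%), and FN1 (fibronectin), TGFBR2 (a TGF-beta receptor) and CAV1 (caveolin) were kept. Of 26 marked autophagy, lysosome and ubiquitin genes 22 were lost, and ATG3, ATG12, UBB and MAP1LC3B were kept.

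The remaining lists also lost most of their marked members, beside 92.6% of CST-marked starts lost over all genes. BIRC2 and CHUK were kept among 16 marked NF-kB and cytokine genes, and IL6 (97.9th percentile), NFKB1 and REL were lost. YAP1 was kept among 15 AP-1 and YAP/TEAD genes, with CCN2 and CCN1 lost. Of 21 acetyltransferase and bromodomain genes ESCO1, BRD2 and BRD8 were kept, of 23 chaperone genes HSPD1 and HSPE1 at their shared start, of 16 p53 targets RRM2B and SESN1, of 14 CTCF and cohesin genes ZNF143 and PDS5B, and of 24 oxidative phosphorylation genes ATP5F1C and CYCS. All 4 marked sirtuins, 8 epithelial and luminal genes, 5 leukocyte markers, 5 neuron markers and 6 olfactory receptors (of 390 in that list) were lost. With Novus only CDK2 (by its gene end) and 1 ZNF gene, ZNF687, were kept among members of all 20 lists. Over all genes 26 of 4414 Novus-marked starts were kept. No list had a gained member in either pair apart from 2 ZNF genes in the CST pair.

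**Figure D5:**
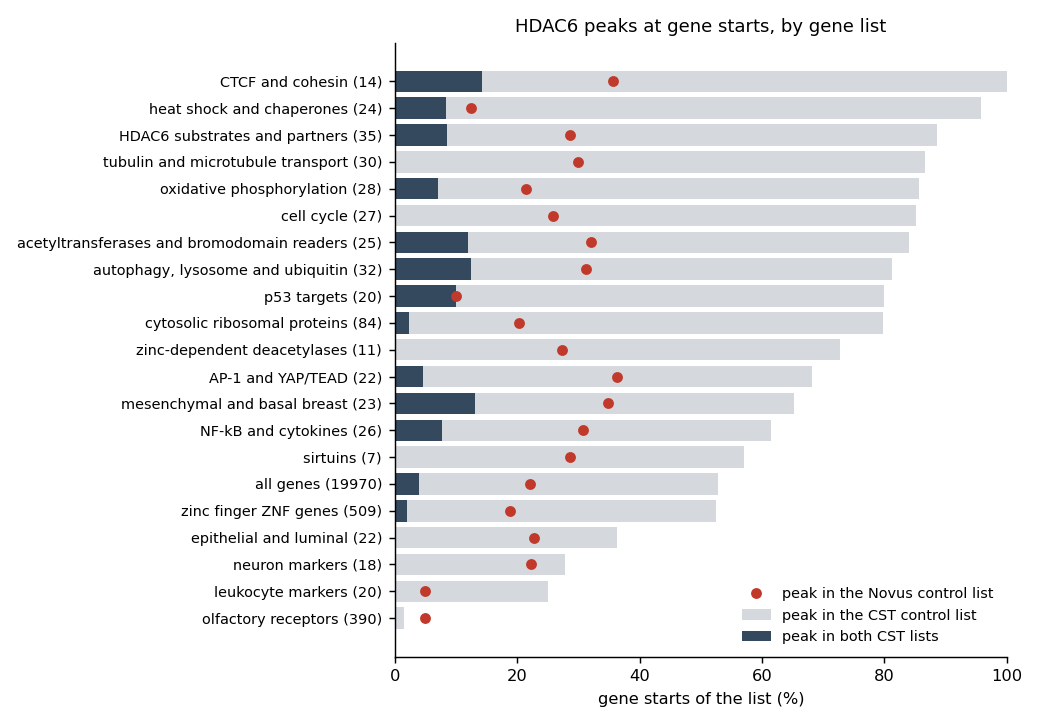
Share of gene starts (x axis, percent) with a CST control peak (light bars), with a peak in both CST lists (dark bars) and with a Novus control peak (red points), for 20 gene lists and all genes, with the number of genes in brackets. The highest share of kept starts is that of CTCF and cohesin (2 of 14 genes), and tubulin, cell cycle, deacetylase and sirtuin genes are among the lists with none.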

How the data were processed

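ChIPseeker 1.28.2, MACS2 2.2.7.1, deepTools 3.5.1, SAMtools 1.13, Bowtie2 2.4.4 and Trim Galore 0.6.7 were used upstream, as were coordinates of hg38 (GRCh38), per the submitters' processing notes, which give no roles here. The authors deposited 1 peak list per sample, without a header, in 9 columns. Column 7 is taken as the authors' fold of a peak over background, a linear ratio, and columns 8 and 9 as the deposited −log10 of p and q. These are the authors' values and were used only to describe, rank or filter peaks within a list. Whether input libraries served as background is not given in the sources used here.

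Chromosomes 1 to 22 and X were kept, and no HDAC6 list repeated a line. Peaks were shared at an overlap of at least 1 bp. A promoter was a gene start ± 1 kb. Near and far peaks, split at 100 kb, were defined after the data were seen. Starts of 15811 of 19970 protein-coding genes came from a RefSeq promoter table (GRCh38.p14). For the rest the gene end with peaks in more of the control ATAC and PolII lists was used (2732 genes), or both ends (1427). On genes of known start this rule chose the right end for 10751, the wrong one for 840, and tied for 4220. Overlap functions were tested on simulated intervals. Tests were exact permutations over lists, and p-values measure only the spread between these lists, which may be technical. Python 3.11.15, pandas 2.3.3 and SciPy 1.17.1 were used.

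Members, gene lists and motifs were chosen with earlier results of these data known. The named genes were HDAC6, promoters in all 4 lists, the 10 kept, lost and gained CST promoters of highest percentile, the 10 kept and 5 gained Novus promoters, and up to 4 members per gene list and state. Some genes that this rule or the marker lists select are not reported here. Other genes named are those at ranks 1 to 10 of the Novus control list or sharing a start. Alternatives were floors on q and p, equal list length, an overlap of 200 bp, promoter windows of 500 bp and 3 kb, genes of known start only, and leaving out far peaks or 1 replicate.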

Additional observations from a re-analysis of the deposited data

How the results depend on the processing

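The mean peak number difference stayed negative under every alternative run. It was -2.37 (log2) with peaks of −log10 q of at least 5 (exact p = 0.667), where the Novus pair (26 and 1 peaks) gave nearly all of it and the CST lists held 654 and 633. It was -2.78 with −log10 p of at least 5 (exact p = 0.667), and leaving out 1 replicate gave -8.09 to -3.13. With the antibody pair as a replicate block (sign flips) the difference was -5.61 with an exact p = 0.5, the smallest that 2 pairs allow, and the block changed no call. Of the other results, 28 values moved beyond counting error or 1.5 times. The q floor of 5 gave 68.2% of CST and 3.85% of Novus control peaks found again, 72.0% and 100% of inhibitor peaks present in control (1 peak in the latter case), 11 kept, 31 lost and 5 gained CST promoters and 1 Novus inhibitor promoter. The p floor of 5, added after seeing the data, gave 16.5%, 6.56%, 60.0% and 88.9%, then 167 kept, 3297 lost and 97 gained, and 9 Novus promoters. Equal list length gave 31.4%, 6.38%, 32.1% and 6.38%, then 250 kept, 1277 lost and 578 gained. An overlap of 200 bp gave 6.10% and 55.0% in the CST pair. Without peaks over 100 kb from a start, also added later, 5.50% and 70.3% were found in the CST pair and 0.0858% of Novus control peaks. Floors and equal length hold fewer peaks by construction. Promoter windows of 500 bp and 3 kb and genes of known start left every promoter count within 1.5 times. Repeated lines had no effect because there were none. Depth limits all of this, since it is unknown and a list with fewer reads would be shorter, as does the unknown removal of peaks from the Novus lists.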

Other observations

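Recovery of CST control peaks differed between chromosomes. It ran from 2.64% of 720 control peaks on chromosome 15 to 14.9% of 228 on chromosome 21, with 12.7% on chromosome 1 and 12.6% on chromosome 4. Chromosome 1 held 13.9% of control peaks and 24.5% of those found again. In the Novus pair 7 of the 38 control peaks found again lay on chromosome 19, which held 8 of the 235 inhibitor peaks.

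Peaks on unplaced sequences and others outside chromosomes 1 to 22 and X were not used above. In the CST pair 251 control and 202 inhibitor lines lay there, and 171 of the 251 (68.1%) overlapped an inhibitor line. The Novus control list held 84 such lines and the inhibitor list 0.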
